A study of Mus musculus with 6 samples.

Results

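Piezo2, Aldh1l2, Bcl3, Il33 and Klk6 are 5 of the 32285 genes counted in single-cell libraries of mouse hippocampus. They were chosen by measured values of these same libraries, for a rise, or an expected rise, in oligodendrocytes of 5×FAD-PBS mice over WT-PBS mice. Differences between those 2 groups in oligodendrocytes are therefore given as a description. Oligodendrocytes wrap axons of the central nervous system in myelin, and in mouse models of amyloid deposition some of them take on a state known from the complement gene C4b and the protease inhibitor gene Serpina3n. Piezo2 encodes a mechanically gated cation channel best known from touch neurons. Aldh1l2 encodes a mitochondrial enzyme that oxidises formyl-tetrahydrofolate and yields NADPH, and its gene is a known target of the stress factor ATF4. Bcl3 encodes a nuclear relative of the IkB proteins that modifies transcription by NF-kB dimers. Il33 encodes a nuclear cytokine released by damaged cells, and in the mouse brain it is known from oligodendrocytes and astrocytes. Klk6 encodes a secreted serine protease of the kallikrein family that marks a subset of mature mouse oligodendrocytes.

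The 3 groups were 5×FAD mice given Aβ3FTnAu (5×FAD-Aβ3FTnAu), 5×FAD mice given PBS (5×FAD-PBS) and wild-type littermates given PBS (WT-PBS), all 6 months old and with 2 libraries each. The 5×FAD line carries human transgenes with mutations of familial Alzheimer's disease, driven by the neuronal Thy1 promoter, so it models inherited amyloid deposition. Dose, route and duration of Aβ3FTnAu were not in the sources used here. The labels do not say whether 2 libraries of a group came from separate mice, so p-values measure the spread between these libraries, which may be technical.

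Oligodendrocytes were the barcodes with enough UMIs (molecules counted once each) of Mog, Mag, Mobp, Ermn and Opalin and not of another class's markers. They numbered 187 and 364 in 5×FAD-Aβ3FTnAu, 445 and 733 in 5×FAD-PBS, and 572 and 385 in WT-PBS, 2686 of the 50224 barcodes in all. Their median depth was 1235 to 1504 UMIs a barcode, and the class summed to 284670 to 1109953 UMIs a library. Myelin genes that did not set the class were high in every library, at a summed 10154 to 12846 CPM (UMIs scaled to the class total). Microglia markers summed to 265 to 479 CPM in the class. Astrocyte markers summed to 137 and 161 CPM in 5×FAD-Aβ3FTnAu, 166 and 211 CPM in 5×FAD-PBS, and 255 and 268 CPM in WT-PBS, with 3 to 6 of 6 markers seen, so they were highest in both WT-PBS libraries. Neuron markers summed to 386 and 318 CPM in 5×FAD-Aβ3FTnAu, 402 and 314 CPM in 5×FAD-PBS, and 795 and 630 CPM in WT-PBS, with 8 or 9 of 9 markers seen, so they were higher in both WT-PBS libraries. Barcodes with no mitochondrial UMI were 55.1% and 68.4% of the class in 5×FAD-Aβ3FTnAu, 27.2% and 16.9% in 5×FAD-PBS, and 63.8% and 30.4% in WT-PBS. The 2 WT-PBS libraries differed most from each other, with a chi-square of 5.18 per degree of freedom over genes, against 1.73 in 5×FAD-Aβ3FTnAu and 1.64 in 5×FAD-PBS. Libraries shared 9 to 45 barcodes with each other, at most 0.561% of the smaller library.

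On GRCm38, Piezo2 lies on chromosome 18 from 63010213 to 63387183 on the minus strand and Aldh1l2 on chromosome 10 from 83487450 to 83534140 on the minus strand. Bcl3 lies on chromosome 7 from 19808462 to 19822770 on the minus strand, Il33 on chromosome 19 from 29925114 to 29960718 on the plus strand and Klk6 on chromosome 7 from 43824499 to 43832030 on the plus strand. All 5 are protein-coding genes. The 3′ end of Aldh1l2 overlaps D10Wsu102e on the other strand, which had 348 UMIs in oligodendrocytes, and Bcl3 contains the antisense genes Gm16175 and Gm16174, with 49 and 6 UMIs. The strand setting of the counting is not stated. Piezo2 overlaps 2 annotated genes that the count tables do not list, and Il33 and Klk6 overlap none.

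Piezo2 was high in oligodendrocytes of both 5×FAD groups and low in WT-PBS. Its level was 140.5 and 162.8 CPM in 5×FAD-Aβ3FTnAu, 104.4 and 117.1 CPM in 5×FAD-PBS, and 25.1 and 12.8 CPM in WT-PBS. No 2 groups overlapped, and the 5×FAD-Aβ3FTnAu libraries were the highest. The share of all genes whose groups of 2 libraries do not overlap is not given here, so nothing is read from this order. Piezo2 rose in 5×FAD-Aβ3FTnAu over WT-PBS by 2.96 ± 0.29 on the log2 scale (SE, n = 2 libraries each; adjusted p = 2.49e-04 in edgeR's quasi-likelihood test over 8714 genes). The WT-PBS libraries of this test are those of the comparison that chose the gene, and the filter on low counts (14.8 CPM in at least 2 libraries) was met in 2, 2 and 1 libraries of the 3 groups, so the call is no independent test. The call passed in all 20 alternatives, with log2 values of 2.48 to 3.56, the highest without WT-PBS replicate 1 and 2.66 without replicate 2. Between 5×FAD-Aβ3FTnAu and 5×FAD-PBS the difference was 0.42 ± 0.23 on the log2 scale and did not pass (95% interval -0.06 to 0.90, adjusted p = 0.620 in edgeR). The 5×FAD-PBS values helped to choose Piezo2, so this is no independent test either. A Piezo2 UMI was found in 13.4% and 15.1% of oligodendrocyte barcodes in 5×FAD-Aβ3FTnAu, 10.8% and 11.9% in 5×FAD-PBS, and 3.15% and 2.08% in WT-PBS. With each barcode thinned to 1000 UMIs the shares were 11.2% and 11.8%, 8.09% and 8.73%, and 1.92% and 0.779% in the same groups. Among astrocytes, of 1266.5 to 1921 median UMIs a barcode, 1 of 83 barcodes of 5×FAD-PBS replicate 1 had a Piezo2 UMI and no barcode of the other 5 libraries did. The largest of those 5, WT-PBS replicate 1 with 0 of 631 astrocytes, allows a share of up to 0.475%, below its own oligodendrocyte share. In WT-PBS replicate 2, 0 of 103 astrocytes allows up to 2.91%, above its oligodendrocyte share of 2.08%, so that share cannot be told from background at this depth. A single oligodendrocyte barcode held at most 6 Piezo2 UMIs.

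Aldh1l2 was also high in oligodendrocytes of both 5×FAD groups, with the order of those 2 groups the other way round. Its level was 42.2 and 53.1 CPM in 5×FAD-Aβ3FTnAu, 64.6 and 76.6 CPM in 5×FAD-PBS, and 7.18 and 12.8 CPM in WT-PBS. The groups did not overlap, from which nothing is read, as the share over all genes is not given here. In 5×FAD-Aβ3FTnAu over WT-PBS it rose by 2.33 ± 0.41 on the log2 scale (SE, n = 2 each; edgeR adjusted p = 0.0182), again with the WT-PBS libraries of the choice and with the filter met only in 5×FAD libraries, so this is no independent test. That call passed in 14 of 20 alternatives. It was lost without 5×FAD-Aβ3FTnAu replicate 1 (log2 2.46, adjusted p = 0.128 in edgeR) and without replicate 2 (log2 2.12, adjusted p = 0.272 in edgeR), and with equal numbers of barcodes a library (log2 1.65, adjusted p = 0.128 in edgeR). It was lost as well with barcodes of at least 800 genes and 1500 UMIs (log2 1.37, adjusted p = 0.414 in edgeR), with only the 2 groups in the fit (log2 2.31, adjusted p = 0.0687) and in barcodes with mitochondrial UMIs (log2 1.88, adjusted p = 0.280). Over all 20 alternatives the log2 value was 1.37 to 2.79 and the adjusted p 1.48e-05 to 0.414. Against 5×FAD-PBS the difference was -0.59 ± 0.30 and did not pass (95% interval -1.22 to 0.05, edgeR adjusted p = 0.594). High 5×FAD-PBS values helped to choose Aldh1l2, so this difference is no independent test either. Shares of barcodes with an Aldh1l2 UMI were 6.42% and 6.87% in 5×FAD-Aβ3FTnAu, 9.21% and 9.55% in 5×FAD-PBS, and 0.874% and 2.08% in WT-PBS. Thinned, they were 4.81% and 5.49%, 6.52% and 6.96%, and 0.699% and 1.04% in those groups. Precursors had Aldh1l2 UMIs too, so no class of this hippocampus served as one that should lack the gene.

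Bcl3 was the rarest of the genes that were called, and nearly absent from WT-PBS oligodendrocytes. Its level was 24.6 and 23.8 CPM in 5×FAD-Aβ3FTnAu, 31.6 and 25.2 CPM in 5×FAD-PBS, and 1.20 and 0 CPM in WT-PBS. These rest on 7 and 13 UMIs in 5×FAD-Aβ3FTnAu, 23 and 28 UMIs in 5×FAD-PBS, and 1 and 0 UMIs in WT-PBS. Every 5×FAD library was above both WT-PBS libraries, and the 2 5×FAD groups lay next to each other. Nothing is read from that order either, for lack of the share over all genes. As a ratio of summed UMIs scaled to class totals, 5×FAD-Aβ3FTnAu stood 35.2 times above WT-PBS, with an exact 95% counting interval of 5.63 to 1459 that covers counting error only. The fit called this difference (edgeR adjusted p = 0.0169), but Bcl3 met the filter only in 5×FAD libraries and its low WT-PBS values helped to choose it, so the call is no independent test. The call was lost without 5×FAD-Aβ3FTnAu replicate 1 (edgeR adjusted p = 0.128), without replicate 2 (edgeR adjusted p = 0.181) and with only the 2 groups in the fit (adjusted p = 0.0687), 3 of 14 alternatives that gave an adjusted p, of range 1.46e-05 to 0.181. Piezo2 and Aldh1l2 each had 20 alternatives in that comparison. In the settings beyond those 14 Bcl3 gave no adjusted p, so its call was not kept there. Against 5×FAD-PBS the 5×FAD-Aβ3FTnAu difference was -0.26 ± 0.43 on the log2 scale (95% interval -1.18 to 0.66, edgeR adjusted p = 0.908). As the 5×FAD-PBS values helped to choose Bcl3, that difference is no independent test either. A Bcl3 UMI was present in 3.21% and 3.02% of barcodes in 5×FAD-Aβ3FTnAu, 4.49% and 3.55% in 5×FAD-PBS, and 0.175% and 0% in WT-PBS. Thinned, the shares were 3.21% and 2.20%, 2.70% and 2.18%, and 0% and 0% in the same groups. The thinned 0 of 572 and 0 of 385 WT-PBS barcodes allow up to 0.524% and 0.779%. No astrocyte or precursor barcode of any library had a Bcl3 UMI. The largest of these sets, 631 astrocytes of WT-PBS replicate 1, allows up to 0.475%.

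Il33 was the most abundant of the 5 genes in oligodendrocytes, and it was not higher in either 5×FAD group. Its level was 372 and 432 CPM in 5×FAD-Aβ3FTnAu, 474 and 482 CPM in 5×FAD-PBS, and 553 and 454 CPM in WT-PBS. The 5×FAD-PBS libraries fell inside the range of WT-PBS, and the 5×FAD-Aβ3FTnAu libraries were below all others. The difference between 5×FAD-Aβ3FTnAu and WT-PBS was -0.31 ± 0.17 on the log2 scale (95% interval -0.68 to 0.05, edgeR adjusted p = 0.368). Against 5×FAD-PBS it was -0.29 ± 0.17 (95% interval -0.65 to 0.08, edgeR adjusted p = 0.658). Neither passed here or in any of 20 alternatives each. The list was drawn up for a rise or an expected rise, and none was seen for Il33: 5×FAD-PBS minus WT-PBS was -0.02 ± 0.16 on the log2 scale (95% interval -0.37 to 0.33). An Il33 UMI was found in 34.2% and 40.1% of barcodes in 5×FAD-Aβ3FTnAu, 45.8% and 43.1% in 5×FAD-PBS, and 49.5% and 46.5% in WT-PBS. Thinned to 1000 UMIs these were 27.3% and 29.7%, 34.2% and 34.2%, and 40.9% and 36.1%. In precursors, of 1779 to 2698 median UMIs a barcode, the unthinned share was 1.04% and 1.52% in 5×FAD-Aβ3FTnAu, 0 of 116 and 0 of 144 barcodes in 5×FAD-PBS, and 1.63% and 0.847% in WT-PBS. Those 2 zeros allow up to 2.59% and 2.08%.

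Klk6 was the scarcest gene, at 7.03 and 10.98 CPM in 5×FAD-Aβ3FTnAu, 12.4 and 19.8 CPM in 5×FAD-PBS, and 13.2 and 0 CPM in WT-PBS. The UMIs behind these levels were 2 and 6 in 5×FAD-Aβ3FTnAu, 9 and 22 in 5×FAD-PBS, and 11 and 0 in WT-PBS. The 2 WT-PBS libraries spanned most of the range, and WT-PBS replicate 1 stood above 3 of the 4 5×FAD libraries. Klk6 was the only one of the 5 genes removed by the filter on low counts. Without the filter it was at -0.87 ± 0.60 on the log2 scale against 5×FAD-PBS and 0.35 ± 0.71 against WT-PBS, for 5×FAD-Aβ3FTnAu (edgeR adjusted p = 0.9746 and 0.913). Summed and scaled to class totals, the ratio of 5×FAD-Aβ3FTnAu to 5×FAD-PBS was 0.571 (exact 95% counting interval 0.227 to 1.27), and to WT-PBS it was 1.28 (0.447 to 3.49). The ratio of 5×FAD-PBS to WT-PBS, which belongs to the choice of the genes, was 2.24 (1.097 to 4.95), where all 11 WT-PBS UMIs came from replicate 1. Shares of barcodes with a Klk6 UMI were 1.07% and 1.65% in 5×FAD-Aβ3FTnAu, 1.35% and 2.73% in 5×FAD-PBS, and 1.40% and 0% in WT-PBS, where 0 of 385 allows up to 0.779%. Thinned, the shares were 0.535% and 1.37%, 0.899% and 2.05%, and 1.05% and 0%.

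**Figure D1:**
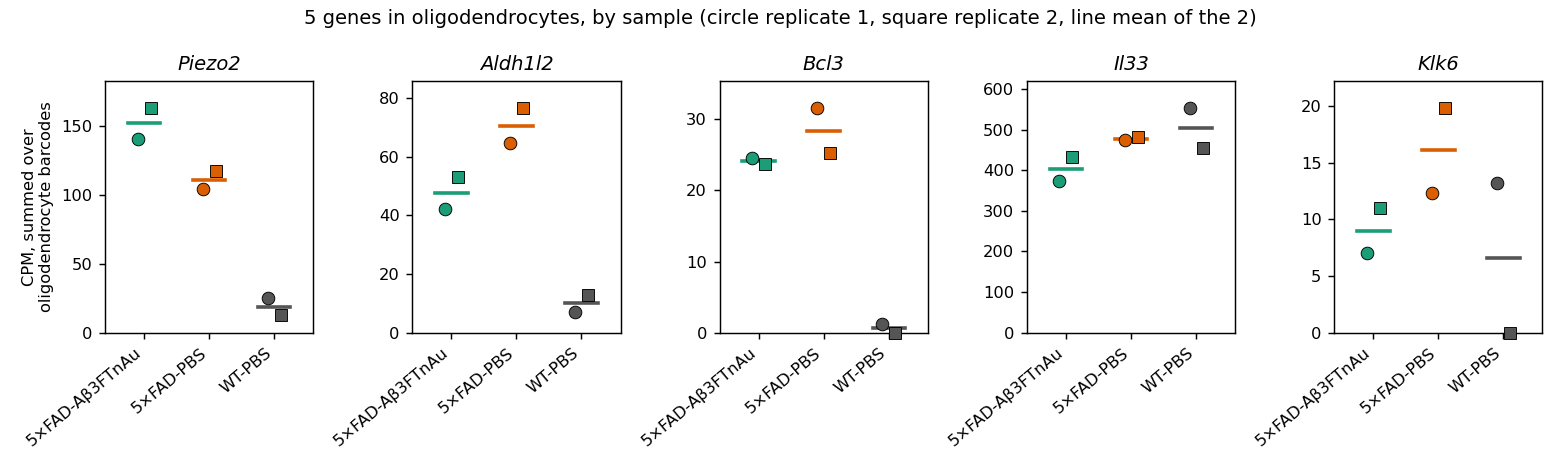
Level (CPM, linear axes from 0) of each gene in the summed oligodendrocyte barcodes of the 6 libraries; circles are replicate 1, squares replicate 2 and lines the mean of the 2. Piezo2, Aldh1l2 and Bcl3 were at most 25.1, 12.8 and 1.20 CPM in WT-PBS and higher in every 5×FAD library, while Il33 and Klk6 overlapped between 5×FAD and WT-PBS libraries.

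In the comparison that chose the genes, 5×FAD-PBS against WT-PBS, 3 of the 4 tested members were past an adjusted p of 0.05 (edgeR), upward, beside 0.126% of all 8714 genes called upward; since the choice used this comparison, nothing is read from that count. The fitted log2 values there were 2.55 ± 0.28 for Piezo2, 2.91 ± 0.36 for Aldh1l2 and 5.08 ± 0.74 for Bcl3. Bcl3 had 51 UMIs in 5×FAD-PBS and 1 in WT-PBS, a ratio on class totals of 40.6 with a counting interval of 6.96 to 1634. The same 3 of 4 members were called upward in 5×FAD-Aβ3FTnAu over WT-PBS, beside 0.93% of all genes. Their low WT-PBS values are among those that chose them and they met the filter through the 5×FAD libraries, so nothing is read from this count either. Between 5×FAD-Aβ3FTnAu and 5×FAD-PBS 0 of 4 passed in edgeR, 0 had an unadjusted p under 0.05, and DESeq2 called 0, beside 0.0115% of all genes called upward and 0.115% downward. The 5×FAD-PBS libraries of this comparison also helped to choose the genes, so it is no independent test. The 3 comparisons share libraries pairwise, so their values are set side by side without a correlation. Leaving out WT-PBS replicate 1, the fitted rise of 5×FAD-Aβ3FTnAu over WT-PBS was 1.91 for Aldh1l2 and 6.97 for Bcl3, and leaving out replicate 2 it was 2.79 and 4.18, all past the threshold.

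**Figure D2:**
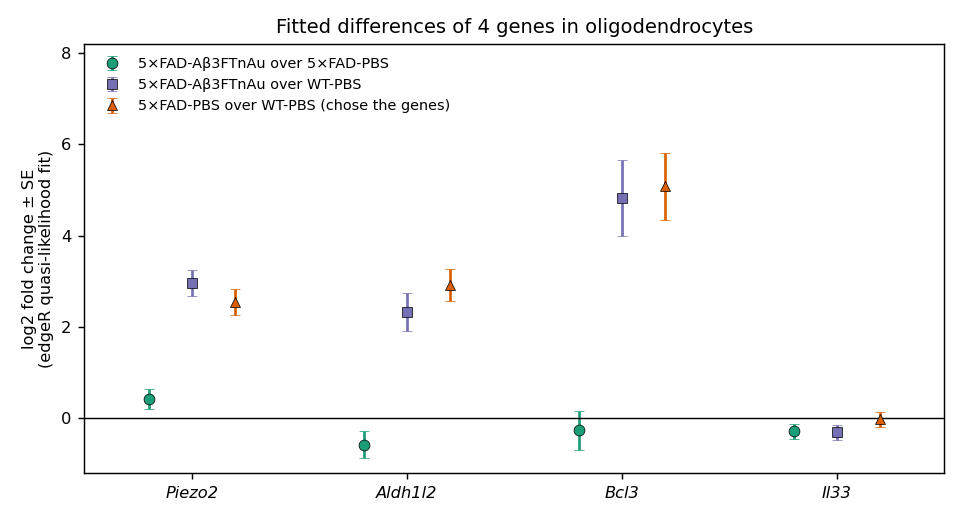
Fitted log2 fold changes (points) with their standard errors (bars) from edgeR for the 4 tested genes in oligodendrocytes, for 3 comparisons with 2 libraries a group. Piezo2, Aldh1l2 and Bcl3 lay between 2.33 and 5.08 in both comparisons with WT-PBS and between -0.59 and 0.42 between the 2 5×FAD groups, and Il33 lay between -0.31 and -0.02 in all 3; the Bcl3 values against WT-PBS rest on 1 WT-PBS UMI.

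The share of barcodes without mitochondrial UMIs and the summed neuron and astrocyte markers differed between groups. Separate fits in barcodes with and without mitochondrial UMIs lost some calls, as given for Aldh1l2 above and under the processing below. Beyond those fits and the following levels, the part of these features in the members' differences was not tested. In barcodes with no mitochondrial UMI, Piezo2 was at 149 and 160 CPM in 5×FAD-Aβ3FTnAu, 116 and 171 CPM in 5×FAD-PBS, and 29.0 and 11.45 CPM in WT-PBS. In barcodes with mitochondrial UMIs it was at 130 and 168 CPM, 100.2 and 106 CPM, and 18.9 and 13.3 CPM in the same groups. In both sets every 5×FAD library was above both WT-PBS libraries, but the 2 5×FAD groups overlapped among barcodes with no mitochondrial UMI. Overlap and its absence are given in this paragraph as a description, without the share over all genes. Aldh1l2 in barcodes with no mitochondrial UMI was at 58.3 and 53.5 CPM in 5×FAD-Aβ3FTnAu, 52.8 and 91.0 CPM in 5×FAD-PBS, and 9.66 and 5.72 CPM in WT-PBS, so the 5×FAD groups overlapped there. In barcodes with mitochondrial UMIs it was at 23.0 and 52.2 CPM, 68.7 and 73.7 CPM, and 3.15 and 15.5 CPM in the same groups, with no overlap. Bcl3 in barcodes with no mitochondrial UMI was at 25.9 and 29.4 CPM in 5×FAD-Aβ3FTnAu, 26.4 and 26.8 CPM in 5×FAD-PBS, and 0 CPM in both WT-PBS libraries, so the 5×FAD groups overlapped. With mitochondrial UMIs it was at 23.0 and 11.6 CPM, 33.4 and 24.9 CPM, and 3.15 and 0 CPM, again with no overlap between the 5×FAD groups, on 2 to 23 UMIs a 5×FAD library.

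Over the 6 libraries, which include the 5×FAD-PBS libraries that chose the genes, all 5 genes had their highest median in oligodendrocytes, and for all but Il33 that range overlapped the next class. In WT-PBS the order for Aldh1l2 was turned, with precursors at 252% and 317% and inhibitory neurons at 186% and 118% of the oligodendrocyte level. Il33 had a median of 464 CPM over the 6 libraries in oligodendrocytes (range 372 to 553), followed by microglia at 42.3 CPM (12.6 to 79.5) and astrocytes at 28.2 CPM (24.9 to 71.9). Excitatory neurons, precursors and inhibitory neurons had Il33 medians of 6.58, 4.55 and 4.41 CPM. The range in oligodendrocytes did not overlap that of microglia, the ranges of microglia and astrocytes overlapped, and so did those of the lowest 3 classes. Piezo2 had a median of 111 CPM in oligodendrocytes (12.8 to 163), 10.9 CPM in precursors (6.78 to 29.3), 4.34 CPM in inhibitory neurons (3.29 to 10.3), 2.78 CPM in excitatory neurons, 1.97 CPM in microglia and 0 CPM in astrocytes. The low end in oligodendrocytes, 12.8 CPM, is a WT-PBS library, and it lay within the range of precursors. Aldh1l2 had medians of 47.6 CPM in oligodendrocytes (7.18 to 76.6), 36.5 CPM in precursors (18.1 to 65.1) and 20.7 CPM in inhibitory neurons (13.4 to 25.4), all of which overlapped, and 7.97, 7.90 and 7.27 CPM in excitatory neurons, astrocytes and microglia. Bcl3 had a median of 24.2 CPM in oligodendrocytes (0 to 31.6), 0.245 CPM in inhibitory and 0.204 CPM in excitatory neurons, and 0 CPM in the other 3 classes, where 1 and 3 UMIs were found in microglia of the 2 5×FAD-PBS libraries. Klk6 had a median of 11.7 CPM in oligodendrocytes (0 to 19.8) and at most 2.52 CPM in any library of another class.

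**Figure D3:**
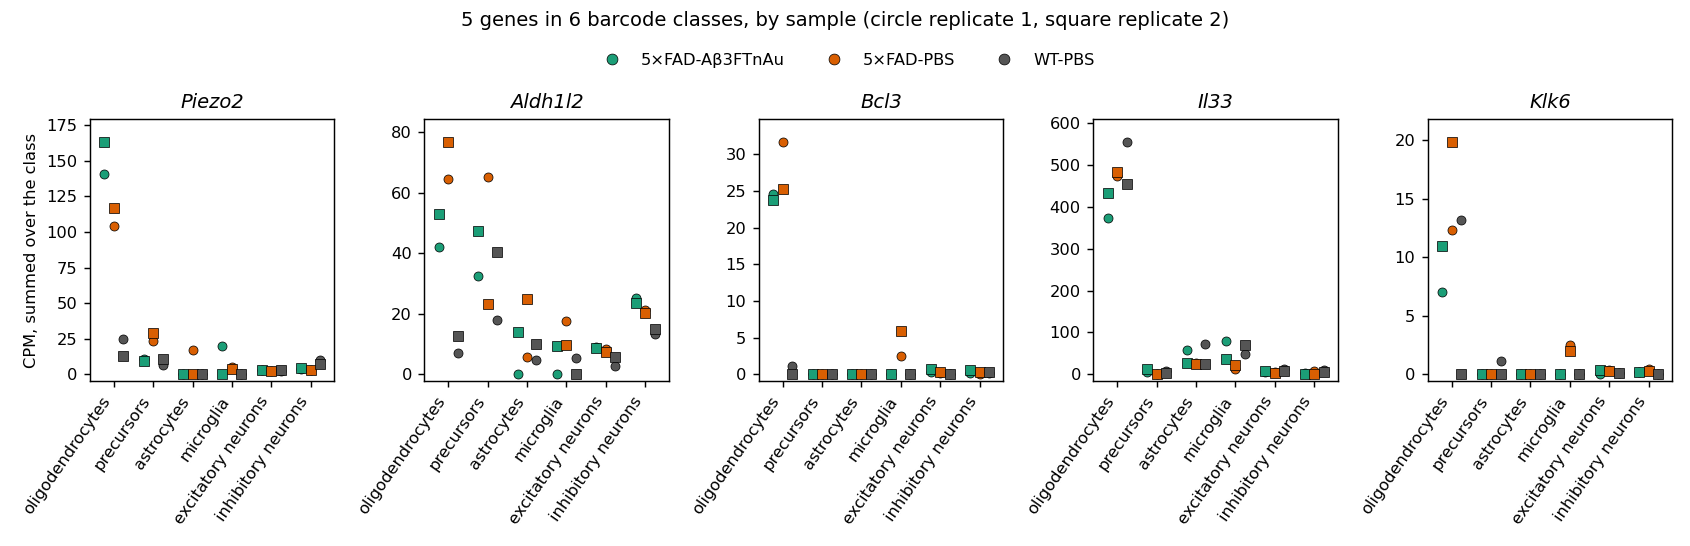
Level (CPM, linear axes) of each gene in 6 barcode classes; each point is 1 library, circles replicate 1 and squares replicate 2, coloured by group. Il33 was at 372 to 553 CPM in oligodendrocytes and at most 79.5 CPM in every other class, and Aldh1l2 in precursors reached 65.1 CPM.

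The difference between classes was tested over the 4 libraries of 5×FAD-Aβ3FTnAu and WT-PBS, with the library as a block and without the 5×FAD-PBS libraries. Il33 was higher in oligodendrocytes than in precursors by 6.02 ± 0.27 on the log2 scale, than in astrocytes by 3.25 ± 0.22, than in microglia by 3.56 ± 0.27 and than in neurons by 5.73 ± 0.15 (edgeR adjusted p = 3.24e-21, 5.09e-16, 2.56e-14 and 1.95e-28). Aldh1l2 was higher in oligodendrocytes than in neurons by 1.43 ± 0.29, than in astrocytes by 1.60 ± 0.56 and than in microglia by 2.68 ± 0.84 (edgeR adjusted p = 5.31e-05, 0.0195 and 0.00962). The call against astrocytes was lost without 5×FAD-Aβ3FTnAu replicate 1 or replicate 2 (log2 1.30 and 1.25, edgeR adjusted p = 0.0850 and 0.150), with equal barcodes a library and in DESeq2, and its adjusted p was 0.0100 to 0.184 over 12 alternatives, and that against microglia without 5×FAD-Aβ3FTnAu replicate 2 (log2 2.59, edgeR adjusted p = 0.100) and with equal barcodes, over a range of 0.00169 to 0.100. Against precursors Aldh1l2 differed by -0.33 ± 0.34 (95% interval -1.02 to 0.37, edgeR adjusted p = 0.482), a mean over groups that went opposite ways. Precursors were at 77.2% and 89.2% of the oligodendrocyte level in 5×FAD-Aβ3FTnAu, and at 252% and 317% in WT-PBS. Astrocytes were at 0% and 26.6% of that level in 5×FAD-Aβ3FTnAu (0 and 1 UMIs), and at 65.0% and 79.6% in WT-PBS (5 and 2 UMIs). Microglia had 0 and 1 Aldh1l2 UMIs in 5×FAD-Aβ3FTnAu, and 1 and 0 in WT-PBS. The WT-PBS values helped to choose Aldh1l2, so its class calls are means over unlike groups and no independent test. Of all 8537 genes tested, 20.7% were called higher in oligodendrocytes than in precursors, 19.4% than in astrocytes, 20% than in microglia and 32.2% than in neurons. Piezo2, Bcl3 and Klk6 did not pass the filter on low counts in this fit. Without that filter Piezo2 was higher in oligodendrocytes than in precursors by 2.99 ± 0.36 and than in neurons by 3.95 ± 0.25 (edgeR adjusted p = 3.76e-15 and 8.86e-57), and Klk6 than in neurons by 5.26 ± 0.64 (adjusted p = 2.39e-15). The Piezo2 values are means over unlike groups. Precursors were at 7.72% and 5.81% of its oligodendrocyte level in 5×FAD-Aβ3FTnAu, and at 27.0% and 86.4% in WT-PBS. The WT-PBS libraries helped to choose the genes, so these calls are no independent test. Klk6 had 2 and 6 oligodendrocyte UMIs in 5×FAD-Aβ3FTnAu, and 11 and 0 in WT-PBS.

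Within the other classes no member passed between groups in edgeR: of 21 tests in precursors, microglia and neurons (none of the 5 genes passed the filter in astrocytes) 0 were called, 6 had an unadjusted p under 0.05, and DESeq2 called 1, Aldh1l2 in neurons of 5×FAD-Aβ3FTnAu over WT-PBS. Aldh1l2 in neurons was at 12.1 and 10.8 CPM in 5×FAD-Aβ3FTnAu, 9.89 and 9.36 CPM in 5×FAD-PBS, and 4.29 and 7.20 CPM in WT-PBS. The WT-PBS libraries were the lowest. In inhibitory neurons, a split of the neurons added after the data were seen, Aldh1l2 was at 25.4 and 23.4 CPM in 5×FAD-Aβ3FTnAu, 21.1 and 20.4 CPM in 5×FAD-PBS, and 13.4 and 15.03 CPM in WT-PBS. There it rose between 5×FAD-Aβ3FTnAu and WT-PBS by 0.82 ± 0.20 on the log2 scale (SE, n = 2 each; edgeR adjusted p = 0.0413), beside 5.24% of 14676 genes called upward. The split was fitted without alternatives. In excitatory neurons Aldh1l2 was at 9.02 and 8.59 CPM in 5×FAD-Aβ3FTnAu, 8.49 and 7.46 CPM in 5×FAD-PBS, and 2.82 and 5.74 CPM in WT-PBS. Its summed UMIs there, scaled to class totals, were 2.39 times those of WT-PBS in 5×FAD-Aβ3FTnAu, against 1.76 times in inhibitory neurons. The excitatory difference was not called in edgeR, though its unadjusted p was under 0.05. Piezo2 in inhibitory neurons went the other way from Aldh1l2. It was at 4.10 and 4.57 CPM in 5×FAD-Aβ3FTnAu, 3.29 and 3.34 CPM in 5×FAD-PBS, and 10.3 and 7.35 CPM in WT-PBS. Its difference between 5×FAD-Aβ3FTnAu and WT-PBS, -1.02 ± 0.31, did not pass (95% interval -1.73 to -0.31, edgeR adjusted p = 0.0692). In precursors Piezo2 had only 3 to 10 UMIs a library and was at 10.8 and 9.47 CPM in 5×FAD-Aβ3FTnAu, 23.7 and 29.3 CPM in 5×FAD-PBS, and 6.78 and 11.03 CPM in WT-PBS. Il33 in inhibitory neurons was at 0.25% to 1.88% of its oligodendrocyte level, and Aldh1l2 was at 26.6% to 186%.

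Co-detection was read in barcodes thinned to 1000 UMIs, pooled over the 2 libraries of a group, as a description with exact 95% intervals that cover counting error only. At least 1 of Piezo2, Aldh1l2 and Bcl3 was found in 17.8% (14.7 to 21.2) of 551 oligodendrocyte barcodes in 5×FAD-Aβ3FTnAu, 15.9% (13.8 to 18.1) of 1178 in 5×FAD-PBS and 2.30% (1.45 to 3.46) of 957 in WT-PBS. Unthinned, these shares were 22.0%, 20.9% and 4.08%. The 2 libraries of a group were alike, with 17.6% and 17.9% thinned in 5×FAD-Aβ3FTnAu, 15.7% and 16.0% in 5×FAD-PBS, and 2.62% and 1.82% in WT-PBS. At least 2 of the 3 genes were found together in 9 barcodes of 5×FAD-Aβ3FTnAu, 18 of 5×FAD-PBS and 0 of WT-PBS. Piezo2 was found in 7 of 29 Aldh1l2-positive barcodes of 5×FAD-Aβ3FTnAu (24.1%, 10.3 to 43.5) against 10.9% of the others. In 5×FAD-PBS it was found in 16 of 80 (20%, 11.9 to 30.4) against 7.65% (6.15 to 9.38) of the others. The share was higher in Aldh1l2-positive barcodes in each of the 4 5×FAD libraries.

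C4b, the complement gene with the near-identical copy C4a, with which it could share reads, was found with a UMI in 106 of the 551 thinned barcodes in 5×FAD-Aβ3FTnAu, 319 of 1178 in 5×FAD-PBS and 12 of 957 in WT-PBS. In 5×FAD-PBS, Piezo2 was found in 13.2% (9.66 to 17.4) of C4b-positive barcodes against 6.75% (5.17 to 8.64) of C4b-negative ones, and Aldh1l2 in 10.7% (7.49 to 14.6) against 5.36% (3.95 to 7.08). In 5×FAD-Aβ3FTnAu, Piezo2 was found in 15.1% (8.88 to 23.4) against 10.8% (8.06 to 14.0), and Aldh1l2 in 6.60% (2.70 to 13.1) against 4.94% (3.12 to 7.39). For both genes the share was higher beside C4b in each of the 4 5×FAD libraries, with intervals that were apart in 5×FAD-PBS and overlapped in 5×FAD-Aβ3FTnAu. Bcl3 was found in 3.77% of C4b-positive against 2.25% of C4b-negative barcodes in 5×FAD-Aβ3FTnAu, and 3.76% against 1.86% in 5×FAD-PBS. Il33 was found in 35.8% (26.8 to 45.7) of C4b-positive against 27.2% (23.1 to 31.6) of C4b-negative barcodes in 5×FAD-Aβ3FTnAu, and in 37.0% (31.7 to 42.5) against 33.2% (30.03 to 36.4) in 5×FAD-PBS. Most Piezo2-positive barcodes had no C4b UMI: 48 of 64 in 5×FAD-Aβ3FTnAu and 58 of 100 in 5×FAD-PBS.

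**Figure D4:**
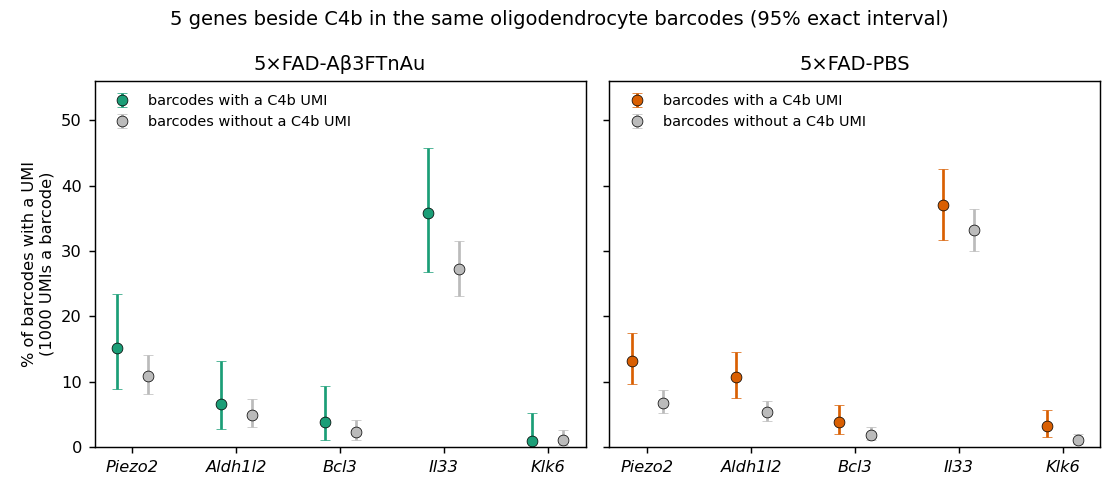
Share of oligodendrocyte barcodes with a UMI of each gene (per cent, linear axis from 0), in barcodes with (coloured) and without (grey) a C4b UMI, thinned to 1000 UMIs and pooled over 2 libraries; bars are exact 95% intervals for counting error only. In 5×FAD-PBS Piezo2 was at 13.2% against 6.75% and Aldh1l2 at 10.7% against 5.36%, while in 5×FAD-Aβ3FTnAu the intervals of each pair overlapped.

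Bases before the transcription start are shown for Bcl3, which differed between 5×FAD and WT-PBS, beside Il33 and Klk6. For Il33 no such difference was called, and the filter on low counts removed Klk6. Piezo2 and Aldh1l2 are not shown, so the sequences do not compare raised genes with others. They are the 250 bases upstream of the first listed start in RefSeq (GRCm38.p6), read 5′ to 3′ on the gene's strand, at chr7:19822756-19823005 (minus) for Bcl3, chr19:29924863-29925112 (plus) for Il33 and chr7:43824294-43824543 (plus) for Klk6. Capitals mark matches, on either strand, to 4 motifs picked with the sequences in view: NF-kB (GGNNTTTCC), STAT (TTCNNNGAA), ATF4 and C/EBP (TGATGNAA) and SOX (ACAAAG).
Bcl3: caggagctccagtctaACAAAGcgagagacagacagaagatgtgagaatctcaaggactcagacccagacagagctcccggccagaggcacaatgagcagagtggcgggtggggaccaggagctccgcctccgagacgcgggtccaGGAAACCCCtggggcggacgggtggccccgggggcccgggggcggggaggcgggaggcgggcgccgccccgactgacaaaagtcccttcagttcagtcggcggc
Il33: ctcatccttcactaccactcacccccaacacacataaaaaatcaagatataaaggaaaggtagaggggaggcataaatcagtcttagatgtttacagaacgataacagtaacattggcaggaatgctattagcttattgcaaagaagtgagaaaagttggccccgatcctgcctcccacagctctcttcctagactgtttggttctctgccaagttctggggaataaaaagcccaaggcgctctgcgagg
Klk6: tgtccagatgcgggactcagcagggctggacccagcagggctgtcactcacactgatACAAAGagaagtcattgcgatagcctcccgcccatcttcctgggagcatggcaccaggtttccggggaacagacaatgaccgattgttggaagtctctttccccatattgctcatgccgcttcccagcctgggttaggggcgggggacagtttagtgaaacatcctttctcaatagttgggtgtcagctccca
Bcl3 had an NF-kB match at -104 to -96 from the start and a SOX match at -234 to -229, Klk6 a SOX match at -193 to -188, and Il33 none. None of the 3 had a STAT or an ATF4 and C/EBP match, and no match overlapped another. Over all 32851 promoters of this length, 4.93% held the NF-kB motif, 7.02% the STAT motif, 3.45% the ATF4 and C/EBP motif and 16.5% the SOX motif. A match describes letters, and no binding was measured here.

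The relatives of each gene were taken from lists chosen with earlier results of these data known. Since 0.126% of all genes were called upward in 5×FAD-PBS over WT-PBS and 0.93% in 5×FAD-Aβ3FTnAu over WT-PBS, a count of 0 in a list this short is near the background and is no result about the list. Of 13 mechanically gated channels 6 were tested, and apart from Piezo2 0 of 5 passed in any of the 3 comparisons. The calcium-permeable channel gene Pkd2 (log2 0.44 ± 0.23) and the osmosensitive channel gene Tmem63a (0.29 ± 0.20) did not pass between 5×FAD-Aβ3FTnAu and WT-PBS. Without Piezo2 the list's median there was 0.25, against -0.02 over all genes. Of 23 folate and one-carbon enzymes 11 were tested, and apart from Aldh1l2 0 of 10 passed, with a median of -0.21. Mthfd1l, which makes mitochondrial formate, was at -0.75 ± 0.36 in that comparison. Of 26 genes of the ATF4 and amino acid response 9 were tested and apart from Aldh1l2 0 of 8 passed, with a median of -0.18. Among them the serine synthesis gene Psat1 was at -0.20 ± 0.25 and the amino acid transporter subunit gene Slc3a2 at -0.89 ± 0.32.

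Of 20 NF-kB and IkB genes 8 were tested, and apart from Bcl3 0 of 7 passed, with a median log2 difference of 0.44 between 5×FAD-Aβ3FTnAu and WT-PBS. Nfkb1, which encodes the p105 and p50 subunit, was at 0.54 ± 0.26, the kinase gene Chuk at 0.46 ± 0.22 and the deubiquitinase gene Cyld at 0.13 ± 0.20. Of 14 genes of the JAK-STAT3 and acute phase list 9 were tested. Apart from Bcl3 0 of 8 passed between 5×FAD-Aβ3FTnAu and WT-PBS (median 0.24), with the transcription factor gene Stat3 at 1.17 ± 0.32 (edgeR adjusted p = 0.0758), the kinase gene Jak2 at 0.28 ± 0.20 and the receptor gene Lifr at 0.20 ± 0.31. In 5×FAD-PBS over WT-PBS 1 of 8 passed and 7 of 8 were above 0 (median 0.33). Serpina3n passed there only between 5×FAD-PBS and WT-PBS (2.94 ± 0.52, edgeR adjusted p = 0.0348), and was at 2.01 ± 0.66 between 5×FAD-Aβ3FTnAu and WT-PBS (edgeR adjusted p = 0.128). The difference between those 2 results was -0.94 ± 0.46 (5×FAD-Aβ3FTnAu against 5×FAD-PBS, edgeR adjusted p = 0.576). Of 10 genes of IL-33 and its receptor 6 were tested and 0 passed in any comparison. Il1rap, the shared co-receptor, was at 594 and 607 CPM in 5×FAD-Aβ3FTnAu, 522 and 581 CPM in 5×FAD-PBS, and 537 and 453 CPM in WT-PBS, and the adaptor gene Traf6 was at 0.24 ± 0.23 on the log2 scale between 5×FAD-Aβ3FTnAu and WT-PBS. Of 17 kallikreins, protease-activated receptors and inhibitors only 3 were tested, the inhibitor genes Serpina3n, Serpine2 and Serpini1, and 0 passed with 5×FAD-Aβ3FTnAu in the comparison.

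Of 13 disease-associated oligodendrocyte genes, a list that names C4b, Serpina3n, H2-D1, Il33 and Klk6, 11 were tested. Without the members, 3 of 10 rose in 5×FAD-PBS over WT-PBS, C4b, Serpina3n and H2-D1, with 8 of 10 above 0 (median 0.77), beside 0.126% of all genes. The list was chosen with these results known. In the other comparisons 1 of 10 rose in 5×FAD-Aβ3FTnAu over WT-PBS (median 0.23), beside 0.93% of all genes, and 0 of 10 passed against 5×FAD-PBS, where 9 of 10 log2 values were below 0 (median -0.74, against -0.0032 over all genes). The gene that rose there was C4b, at 141 and 240 CPM in 5×FAD-Aβ3FTnAu, 305 and 355 CPM in 5×FAD-PBS, and 9.58 and 11.2 CPM in WT-PBS (5×FAD-Aβ3FTnAu over WT-PBS 4.24 ± 0.34, edgeR adjusted p = 3.25e-05). C4b in 5×FAD-Aβ3FTnAu lay between the other groups. The antigen presentation gene H2-D1, which has close paralogs, was at -1.21 ± 0.36 against 5×FAD-PBS, and the tetraspanin gene Cd9 at -1.18 ± 0.31 (edgeR adjusted p = 0.295 and 0.227). Of 10 genes of mature oligodendrocyte subtypes 7 were tested. Ptgds, which encodes a prostaglandin D synthase, was called lower in 5×FAD-Aβ3FTnAu, with log2 values of -1.62 ± 0.27 against 5×FAD-PBS and -2.06 ± 0.28 against WT-PBS (edgeR adjusted p = 0.0442 and 0.00431). It was at 790 and 673 CPM in 5×FAD-Aβ3FTnAu, 2008 and 2329 CPM in 5×FAD-PBS, and 4332 and 1802 CPM in WT-PBS. Against 5×FAD-PBS 0.115% of all genes were called downward. The Ptgds call was not followed through the alternatives. The transferrin gene Trf, at -0.83 ± 0.18 against 5×FAD-PBS, was not called (edgeR adjusted p = 0.126), and against WT-PBS it was at -0.04 ± 0.18. The glutamate receptor gene Grm3 was at 0.08 ± 0.15 against 5×FAD-PBS.

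The genes whose levels over the 6 oligodendrocyte sums were most like each member's were ranked by Pearson's r of log2(CPM + 5), as a description over libraries that share groups. They were Fbl, Purb and Sorcs1 for Piezo2 (r = 0.99, 0.98 and 0.97), and Tulp4, Atp8b5 and C4b for Aldh1l2 (r = 0.998, 0.991 and 0.990). For Bcl3 they included Ankrd13a and Tiparp (0.99 and 0.98), for Il33 Cyhr1, Emc10 and Gpr22 (0.99 each) and for Klk6 Ubap1, Polk and Pigu (0.97, 0.96 and 0.96). Atp8b5, a phospholipid flippase gene, was at 24.6 and 34.8 CPM in 5×FAD-Aβ3FTnAu, 33.0 and 37.8 CPM in 5×FAD-PBS, and 5.98 and 11.2 CPM in WT-PBS. Tiparp, which encodes a mono-ADP-ribosyltransferase, was at 35.1 and 29.3 CPM in 5×FAD-Aβ3FTnAu, 35.7 and 25.2 CPM in 5×FAD-PBS, and 10.8 and 7.97 CPM in WT-PBS. In both, as in the members they resemble, every 5×FAD library was above both WT-PBS libraries, which follows from picking them by r and is no separate result. With 6 libraries and 6781 or 6782 genes compared for a member, values of r this high carry no test.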

How the data were processed

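Single-cell suspensions of hippocampus were measured with the 10x Chromium 3′ v3.1 kit in 6 libraries. The authors deposited raw UMI counts of 32285 genes per barcode, aligned to mm10 with Cell Ranger, per the submitters' processing notes, with version 7.1.0 per the file headers. Library totals were 32528417 to 76780861 UMIs.

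The 44736 barcodes kept had 500 genes or more, 1000 UMIs or more and no more than 15% of UMIs from mitochondrial genes. A class needed 2 or more of its markers and, per 10000 UMIs, at least 20 marker UMIs for oligodendrocytes and vascular cells, 30 for neurons, precursors and microglia and 40 for astrocytes, and a barcode over more than 1 gate was left out. Doublets were otherwise kept, and Scrublet was an alternative. Counts were summed per library and class and tested with edgeR 4.0.16 (quasi-likelihood, TMM, filterByExpr, all 3 groups in 1 fit), with Benjamini-Hochberg adjustment over all genes at 0.05. The class difference used the library as a block. DESeq2 1.42.0 was an alternative. R was 4.3.3, Python 3.11.15 and scipy 1.17.1. The scripts were tested on simulated data. Thinning drew 1000 UMIs a barcode, and all oligodendrocyte barcodes reached that depth. Shares carry exact binomial intervals of 95%, and a share of 0 its limit of 3 counts; both cover counting error only. With 2 libraries a group an exact permutation test cannot go below p = 0.333, so none is given.

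The 5 genes and all lists were chosen with earlier results of these data known. The named genes were the 5 members, for each list the called genes and the 3 with the highest mean CPM, and for each member the 3 genes with the highest r among genes of at least 20 CPM. C4b and Serpina3n were the partners for co-detection. One gene that this rule names is not reported here.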

Additional observations from a re-analysis of the deposited data

Results flagged for a closer look

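In 6 comparisons all libraries of one class moved opposite to all libraries of another class. Each value is a log2 ratio of mean CPM, and none of these differences between classes was tested. The number of comparisons searched is not given here, so nothing is read from the count of 6. In oligodendrocytes the 5×FAD-PBS and WT-PBS values helped to choose the genes. Piezo2 between 5×FAD-PBS and WT-PBS was at 2.547 in oligodendrocytes and -1.412 in inhibitory neurons, a difference of 3.96, of which the first value was used to choose the gene. Piezo2 between 5×FAD-Aβ3FTnAu and WT-PBS was at 3.001 in oligodendrocytes and -1.025 in inhibitory neurons, a difference of 4.026. Piezo2 between 5×FAD-Aβ3FTnAu and 5×FAD-PBS was at 0.454 in oligodendrocytes and -1.381 in precursors, a difference of 1.835 that rests on 3 to 10 precursor UMIs a library. Aldh1l2 between 5×FAD-Aβ3FTnAu and 5×FAD-PBS was at -0.568 in oligodendrocytes, against 0.144 in excitatory neurons (difference -0.712) and 0.234 in inhibitory neurons (difference -0.802). Il33 between 5×FAD-Aβ3FTnAu and 5×FAD-PBS was at -0.249 in oligodendrocytes and 1.768 in microglia, a difference of -2.018. The microglial values rest on 4 and 4 UMIs in 5×FAD-Aβ3FTnAu and 5 and 11 UMIs in 5×FAD-PBS. Myelin genes in the microglia class summed to 1352 and 1074 CPM in 5×FAD-Aβ3FTnAu and 647 and 745 CPM in 5×FAD-PBS, and the 5 oligodendrocyte gate genes to 258 and 213 CPM and to 136 and 181 CPM in those groups; their part in the Il33 difference was not tested.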

How the results depend on the processing

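Of 336 values of single genes under alternatives, 308 kept their direction and side of the threshold, 22 kept the direction only and 6, none of them called, changed sign. Bcl3 between 5×FAD-Aβ3FTnAu and 5×FAD-PBS was at 0.15 thinned. Il33 between 5×FAD-PBS and WT-PBS was at 0.16 with the stricter barcode filter, 0.018 with mixed-marker barcodes kept, 0.022 with mitochondrial UMIs, 0.026 with equal barcodes, and -0.10 to 0.11 with 1 library left out (0.11 without WT-PBS replicate 1). Counts of called genes depended more on the setting. Between 5×FAD-PBS and WT-PBS, 16 genes became 4 in DESeq2, 3 with only the 2 groups in the fit, 207 with no filter on low counts, 5 with the stricter barcode filter, 5 with the stricter gate, 27 with mixed-marker barcodes kept, 3 without and 15 with mitochondrial UMIs, 5 with equal barcodes, and 3 to 893 with 1 library left out (78 without WT-PBS replicate 1, 893 without WT-PBS replicate 2). Between 5×FAD-Aβ3FTnAu and 5×FAD-PBS, 11 became 5 in DESeq2, 126 with 2 groups, 110 with no filter, 3 with the looser and 3 with the stricter barcode filter, 1 without and 3 with mitochondrial UMIs, 18 thinned, and 0 to 247 with 1 library left out (0 without 5×FAD-Aβ3FTnAu replicate 1, 2 without 5×FAD-PBS replicate 2, 247 and 237 without WT-PBS replicate 1 and 2). Between 5×FAD-Aβ3FTnAu and WT-PBS, 180 became 68 in DESeq2, 8 with 2 groups, 529 with no filter, 15 with the stricter barcode filter, 103 with the stricter gate, 102 without and 7 with mitochondrial UMIs, 70 with equal barcodes, and 4 to 1226 with 1 library left out (4 without either 5×FAD-Aβ3FTnAu library, 1226 without WT-PBS replicate 2). The cause was not tested. Members called between 5×FAD-PBS and WT-PBS, 3, became 1 with the stricter barcode filter, 1 without mitochondrial UMIs and 0 with equal barcodes. Between 5×FAD-Aβ3FTnAu and WT-PBS, 3 became 1 with 2 groups, the stricter barcode filter, mitochondrial UMIs only or equal barcodes, and 1 to 3 with 1 library left out. DESeq2 gave no adjusted p for Bcl3 there, nor for the 3 called members in the other comparison with WT-PBS. In 5×FAD-Aβ3FTnAu over WT-PBS, edgeR gave none for Bcl3 with the stricter barcode filter, mitochondrial UMIs only or equal barcodes. The counts of those 3 settings therefore mix a lost call of Aldh1l2 with a gene that gave no adjusted p. In the other classes 0 became 1 in DESeq2 and 0 to 6 with 1 library left out (1 without WT-PBS replicate 1, 6 without replicate 2). Of the differences between classes, 7 became 19 with no filter and 4 with the stricter barcode filter, without or with mitochondrial UMIs, or thinned. With the replicate block the 3 counts were 14, 11 and 136, with 3, 0 and 3 members called; same-numbered libraries correlated at 0.018 (5×FAD-Aβ3FTnAu and 5×FAD-PBS), -0.041 (5×FAD-Aβ3FTnAu and WT-PBS) and -0.117 (5×FAD-PBS and WT-PBS), so the numbers were not read as pairs. Where a left-out library leaves 1 in its group, that library is assumed to vary like the others. Bcl3 and Klk6 rest on 1 to 28 and 2 to 22 UMIs a library where present, which limits their folds.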
